A study of Mus musculus with 6 samples.

Results

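The 57 genes described here encode proteins of the mitotic spindle, the kinetochore and condensin, from the kinases that start mitosis to the motors and rings that end it. They are a set of named gene symbols, put together with earlier results of these data known, and all 57 were found among the 23183 symbols for which the files give a value. Double positive (DP) thymocytes, a stage of T cell development in the thymus at which both co-receptors, CD4 and CD8, are on the surface, were sorted from C57BL/6 mice at 6 weeks of age. The WT group was Nsrp1 f/f, so WT cells carry the floxed alleles too but no Cre, and the NSrp70-cKO group was Nsrp1 f/f with CD4Cre, with 3 libraries per genotype. CD4Cre is driven by control elements of the Cd4 gene and becomes active in thymocytes shortly before and during the DP stage, so the deletion acts mainly in the T lineage and may differ in time between cells. The question of the comparison was which genes change in DP thymocytes without NSrp70, a splicing factor of the nuclear speckle.

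A dividing cell first condenses its chromosomes with condensin and topoisomerase II, and then attaches each centromere through the kinetochore to microtubules of the spindle. The spindle checkpoint holds the cell until every kinetochore is attached, after which the anaphase-promoting complex marks securin and cyclin B for destruction, separase opens cohesin, and the central spindle places the cleavage furrow. Most of these genes are transcribed mainly in G2 and M phase, and in the thymus such cycling belongs mostly to immature thymocytes that have just passed selection for the TCR beta chain and to early DP cells, whereas most later DP cells rest.

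The values are FPKM, that is, fragments for each kilobase of a transcript relative to the mapped depth, and differences are given as log2 fold changes, cKO minus WT, of FPKM + 1, so that changes of genes at low level come out too small. Adjusted p-values come from limma over 10326 tested genes with the Benjamini-Hochberg method. Depth, estimated from the size of 1 fragment, was 20.7 to 20.8 M fragments (M, mega) in WT and 13.2 to 20.6 M in cKO, and even the lowest member value in any library, an FPKM of 4.55, stands for about 170 fragments of a transcript of 2000 nucleotides, a counting error of 7.66%. The mean squared difference between libraries was 1.49 to 1.58 times that of counting noise among the 3 WT pairs and 28.1 to 66.3 times among the 3 cKO pairs, and nothing in the labels says that libraries of a group came from separate mice, so p-values then measure only the spread between these samples, which may be technical. Nsrp1, listed under its older symbol Ccdc55, had an FPKM of 20.2, 20.7 and 21.1 in WT and of 17.7, 15.8 and 15 in cKO, and what is left of the deleted exons cannot be read from a value for the whole gene. Xist lay between 69.8 and 72.0 in WT and between 4.07 and 5.44 in cKO, while 4 genes of chromosome Y were listed at 0 in WT and between 5.83 and 43.8 in cKO, so effects of sex and of genotype cannot be told apart. FPKM totals were 521296 to 531517 in WT and 701396 to 850548 in cKO.

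Nearly the whole mitotic programme was higher in NSrp70-cKO DP thymocytes. All 57 genes passed the filter on low values (an FPKM of at least 1 in at least 3 libraries), 52 rose and 0 fell. These 52 are 91.2% of the members, whereas 35.8% of all tested genes rose and 29.8% fell at the same threshold. The median log2 fold change was 0.98 over the 57 genes and 0.04 over all tested genes. A log2 fold change of at least 1 was reached by 28 of the members that rose (49.1%), against 3.88% of all tested genes. The 5 genes that did not pass were Incenp, Espl1, Kifc1, Racgap1 and Ncapd2. In 52 of the 57 genes (91.2%) every cKO library lay above every WT library, against 39.2% of all tested genes. The same share of all tested genes applies wherever genes higher in cKO are said below to be apart or not to overlap.

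**Figure D1:**
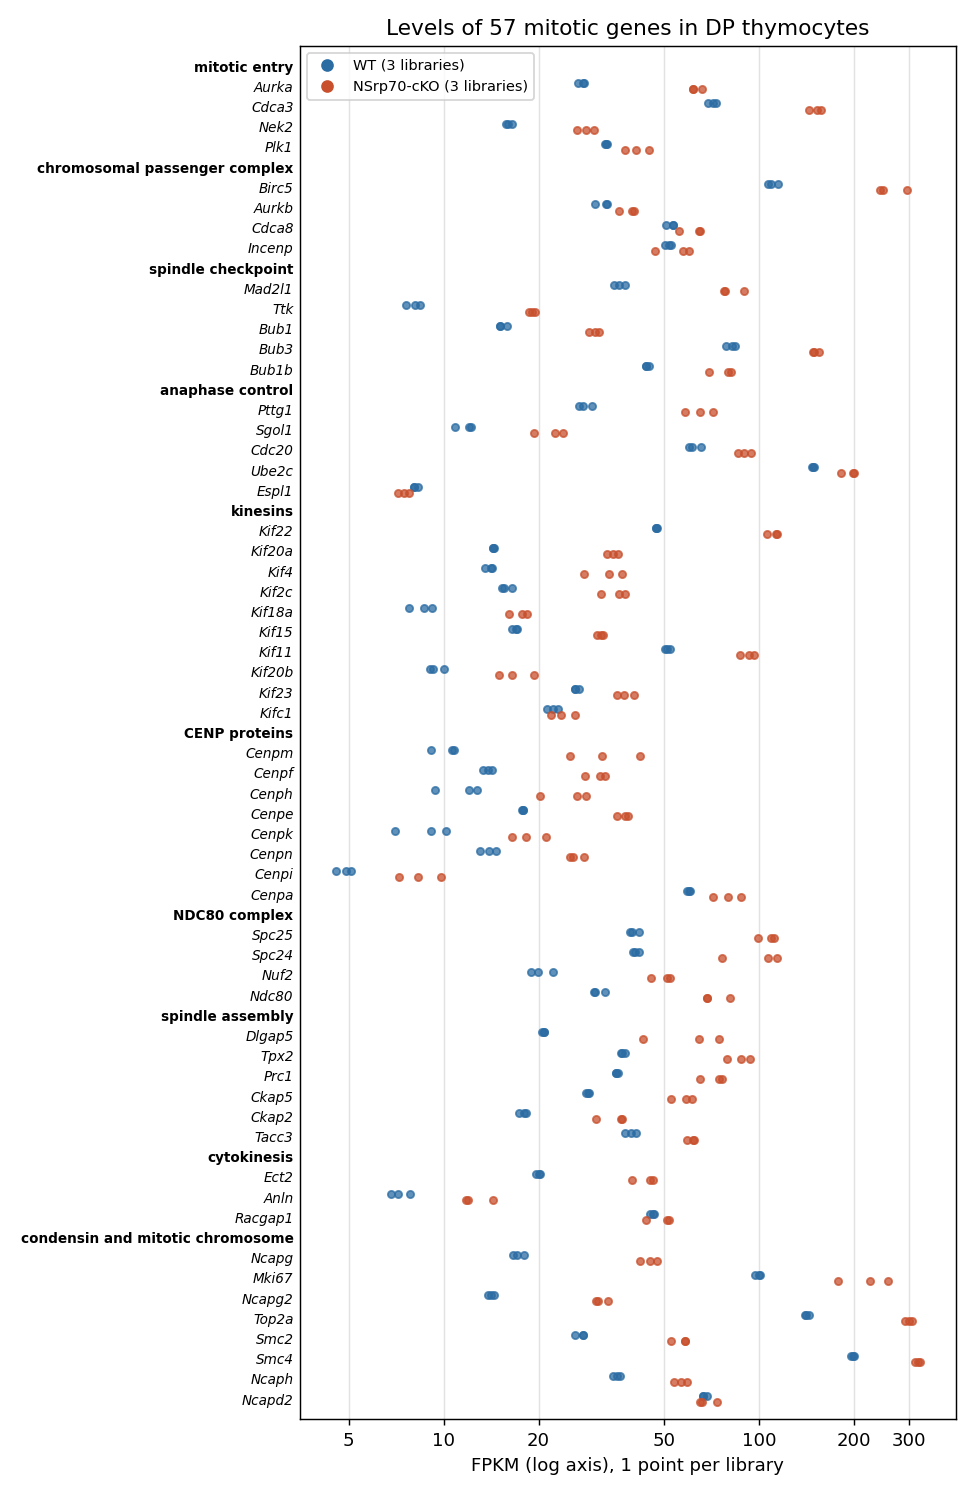
FPKM of the 57 genes on a log axis, with 1 point per library, WT in blue and NSrp70-cKO in orange, grouped by role and ordered by log2 fold change within each group. The orange points lie to the right of the blue points in 52 genes, overlap them in 4 and lie to their left in Espl1.

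Summed over all 57 genes, FPKM was 2174, 2186 and 2207 in the 3 WT libraries and 4049, 3861 and 4181 in the 3 cKO libraries. The groups did not overlap, and the cKO mean of 4030 ± 160 (SD, n = 3) was 1.84 times the WT mean of 2189 ± 16.5 (SD, n = 3). As a share of all FPKM of a library the sum was 0.409%, 0.419% and 0.418% in WT and 0.512%, 0.551% and 0.492% in cKO, a ratio of the means of 1.25. In bulk RNA, more cells in mitosis and more RNA of these genes per cell cannot be told apart. Levels ran from an FPKM of 4.85 for Cenpi to 199 for Smc4 in the WT means, and the median member went from 27.4 in WT to 49.5 in cKO.

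The promoter sequences are shown because a form of control is known for many genes of G2 and M phase. Genes of G2 and M phase often carry a cell cycle genes homology region (CHR), where the DREAM and MuvB complexes bind, together with CCAAT boxes bound by NF-Y. Windows of 300 bases (250 before to 50 after the start, RefSeq, GRCm38.p6) were found for 50 of the 57 genes. The CHR letters TTTGAA, searched on both strands, occurred in 35 of these 50 genes (70.0%), against 20.2% of the 27025 genes with a window and 17.9% of the 32851 windows. CCAAT, on both strands, occurred in 37 of the 50 (74.0%), against 41.1% of all genes and 37.4% of all windows, and both together in 29 (58.0%) against 8.0% of all genes and 7.0% of all windows. The CHR variant TTTAAA was found in 9 members (18%; 14.9% of all genes and 13.2% of all windows) and the E2F letters TTTCGCGC or TTTGGCGC in 3 (6.0%; 0.9% and 0.8%), namely Kif15, Kif18a and Ncapd2. A gene with several windows counts where any of them holds the letters, and a match describes the letters, not a bound site.

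Below are the last 120 bases before and the first 50 after the start of the 6 members with the largest log2 fold changes among those with CHR letters, 5′ to 3′ on the strand of the gene. Capitals mark TTTGAA or its reverse complement and CCAAT or its reverse complement. The stretches lie at chr2:69206164-69206333 (minus strand) for Spc25, chr5:45669805-45669974 (plus) for Ncapg, chr7:127042371-127042540 (minus) for Kif22, chr17:71526808-71526977 (minus) for Ndc80, chr2:172370521-172370690 (minus) for Aurka and chrX:100625945-100626114 (plus) for Kif4.
Spc25: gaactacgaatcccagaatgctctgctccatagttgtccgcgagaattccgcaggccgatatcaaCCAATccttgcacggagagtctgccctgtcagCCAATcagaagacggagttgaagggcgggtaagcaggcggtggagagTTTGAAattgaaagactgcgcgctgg
Ncapg: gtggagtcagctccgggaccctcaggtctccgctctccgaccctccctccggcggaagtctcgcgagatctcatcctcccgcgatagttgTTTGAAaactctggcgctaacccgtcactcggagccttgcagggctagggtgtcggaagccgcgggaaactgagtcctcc
Kif22: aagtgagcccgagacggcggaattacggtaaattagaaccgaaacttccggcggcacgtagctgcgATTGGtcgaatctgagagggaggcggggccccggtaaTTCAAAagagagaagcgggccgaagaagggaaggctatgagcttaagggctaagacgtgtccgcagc
Ndc80: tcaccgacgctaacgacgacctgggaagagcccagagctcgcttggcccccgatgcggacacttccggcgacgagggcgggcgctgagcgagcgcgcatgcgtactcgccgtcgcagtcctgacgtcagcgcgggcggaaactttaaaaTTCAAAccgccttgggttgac
Aurka: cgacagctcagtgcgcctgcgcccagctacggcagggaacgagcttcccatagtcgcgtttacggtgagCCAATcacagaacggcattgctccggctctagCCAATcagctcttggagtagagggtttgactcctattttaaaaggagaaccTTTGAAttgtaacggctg
Kif4: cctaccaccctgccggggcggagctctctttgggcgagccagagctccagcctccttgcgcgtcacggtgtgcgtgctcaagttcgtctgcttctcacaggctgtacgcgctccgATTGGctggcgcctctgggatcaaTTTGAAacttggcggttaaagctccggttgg

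In Spc25 and Aurka a pair of CCAAT boxes lies upstream of the CHR letters on the same strand, with the second box 23 and 19 bases before the start and the CHR letters 24 and 32 bases after it. Ndc80 carries CHR letters but no CCAAT in its window, and in Ncapg the only CCAAT, 176 bases before the start, lies outside the stretch shown. Having the CHR letters did not go with a larger change: the median log2 fold change was 0.91 in the 35 members with them and 1.01 in the 15 matched members without them. Among those 15 the log2 fold changes ran from 0.63 (Tacc3) to 1.57 (Cenpm). All 4 of the members that did not pass and had a window (Espl1, Kifc1, Racgap1 and Ncapd2) hold the CHR letters.

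**Figure D2:**
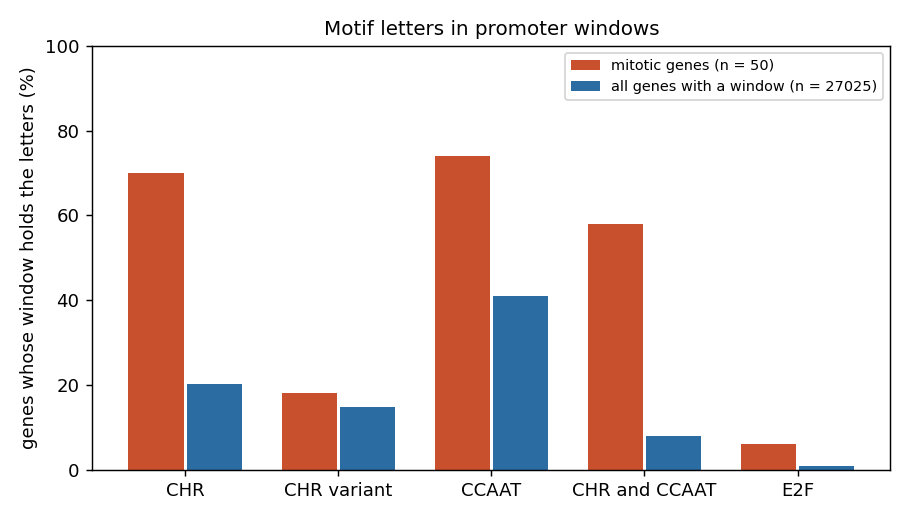
Share of genes (%) whose promoter window holds the letters of each motif on either strand, for the 50 mitotic genes with a window (orange) and all 27025 genes with a window (blue). The gaps are widest for CHR, 70.0% against 20.2%, and for CHR with CCAAT, 58.0% against 8.0%.

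The genes of mitotic entry all rose. Aurka, the kinase that matures centrosomes and builds the spindle poles (chr2:172356190-172370535), had an FPKM of 26.8, 27.7 and 27.8 in WT and of 61.8, 62.0 and 66.1 in cKO, groups that did not overlap and spread little within themselves. Its log2 fold change was 1.18 (SE 0.061, adjusted p = 8.06e-05, limma), the largest of the 4. Cdca3, an adaptor that helps destroy the CDK1 inhibitor WEE1 at mitotic entry, was the highest of them, at 69.1, 71.5 and 73.1 in WT and 158, 144 and 153 in cKO (log2 fold change 1.08, adjusted p = 0.000103, limma). Plk1, the polo kinase that acts from entry to cytokinesis (chr7:122159439-122169873), changed least, from 33.1, 32.7 and 32.6 to 44.8, 37.5 and 40.7. The Plk1 groups were apart, but its log2 fold change was only 0.31 (SE 0.080, adjusted p = 0.0118, limma), and its adjusted p was 0.235 when WT entered as a single averaged sample; with equal FPKM totals the change was -0.24. Nek2, which separates the centrosomes, lay between them with a log2 fold change of 0.77.

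The chromosomal passenger complex, which corrects wrong attachments at centromeres and later works at the midzone, did not move as a block. Birc5 (survivin, chr11:117849251-117855743), its link to the centromere, had an FPKM of 109, 115 and 107 in WT and of 248, 242 and 294 in cKO, a log2 fold change of 1.23 (SE 0.095, adjusted p = 0.000146, limma). All 3 cKO libraries lay far above WT. Incenp, the scaffold that binds and activates Aurora B (chr19:9872296-9899551), had 50.2, 52.8 and 51.7 in WT and 60.2, 46.8 and 57.6 in cKO. The Incenp groups overlapped through cKO library 2, and the log2 fold change of 0.08 (SE 0.10) did not pass (adjusted p = 0.529, limma), whereas it was 0.20 (adjusted p = 0.00833, limma) without cKO library 2. After correction for GC content and length Incenp was called higher (0.33, adjusted p = 0.0242, limma). Aurkb, the kinase of the complex, and Cdca8 (borealin), which binds survivin, had log2 fold changes of 0.26 and 0.22, with adjusted p-values of 0.0174 and 0.0358 from limma, but both were below 0 with equal FPKM totals (-0.28 and -0.33). Aurkb lost its call without WT library 2 (adjusted p = 0.0824) or cKO library 3 (0.0502), and Cdca8 without any 1 of the WT libraries or cKO library 3 (adjusted p = 0.0875 to 0.127, limma). The ratio of Birc5 to Incenp within a library, which no scaling of libraries can move, went from 2.07 to 2.18 in WT to 4.12 to 5.16 in cKO.

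All 5 genes of the spindle checkpoint rose, and they rose by similar amounts, with log2 fold changes from 0.79 (Bub1b) to 1.16 (Mad2l1). Mad2l1, the MAD2 protein that binds CDC20 and holds back anaphase (chr6:66535390-66547220), had an FPKM of 35.9, 34.7 and 37.7 in WT and of 78.3, 77.6 and 90.0 in cKO (SE of the log2 fold change 0.081, adjusted p = 0.000112, limma). Bub3, the WD-repeat protein that carries BUB1 and BUBR1 to kinetochores, was the highest at 83.7, 82.3 and 78.8 in WT and 148, 149 and 155 in cKO. Bub1b, which encodes BUBR1, went from 43.7, 44.7 and 43.9 to 81.6, 69.7 and 79.6. None of the 5 overlapped between genotypes. Ttk, the MPS1 kinase at the top of the checkpoint, was the lowest in level, with a WT mean of 8.06 ± 0.408 and a cKO mean of 19.1 ± 0.407 (SD, n = 3), and Bub1 had a log2 fold change of 0.92. All 5 kept their calls under the alternative scaling to the same FPKM total, with log2 fold changes from 0.23 (Bub1b) to 0.63 (Ttk). With the WT libraries also counted as 1 sample the log2 fold changes again ran from 0.23 (Bub1b) to 0.63 (Ttk), but not all of these genes kept their calls.

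Of the 5 genes of anaphase control, 4 rose, and securin and separase stood apart. Pttg1, which encodes securin, the inhibitor of separase (chr11:43420250-43426251), had an FPKM of 27.6, 26.9 and 29.6 in WT and of 58.1, 71.4 and 65.2 in cKO, a log2 fold change of 1.18 (SE 0.087, adjusted p = 0.000129, limma). Espl1, separase itself (chr15:102296266-102324357), had 8.27, 8.08 and 8.06 in WT and 7.46, 7.76 and 7.16 in cKO. Espl1 was the only member with every cKO library below every WT library, yet its log2 fold change of -0.11 (SE 0.064) did not pass (adjusted p = 0.162, limma). After correction for GC content and length the pair lay much closer, with Pttg1 at 0.77 and Espl1 at 0.48 and called higher (adjusted p = 0.00157, limma). The ratio of Pttg1 to Espl1 within a library went from 3.33 to 3.67 in WT to 7.79 to 9.20 in cKO. Ube2c, the ubiquitin-conjugating enzyme of the anaphase-promoting complex and the highest of the group, had 147, 148 and 150 in WT and 199, 183 and 200 in cKO, a rise of 0.38 on the log2 scale (adjusted p = 0.00318, limma). Cdc20, the activator of the complex, rose by 0.52 and Sgol1, shugoshin, which guards centromeric cohesin, by 0.85 on the log2 scale. Counted with the WT libraries as 1 sample, neither Ube2c (adjusted p = 0.196) nor Cdc20 (0.0796) passed in limma, and with equal FPKM totals they stood at -0.18 and -0.030.

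Of the 10 kinesins, 9 rose, with log2 fold changes from 0.50 (Kif23) to 1.21 (Kif22). Kif22, the chromokinesin Kid that pushes chromosome arms to the equator (chr7:127027729-127042471), had an FPKM of 47.5, 47.2 and 47.0 in WT and of 114, 106 and 113 in cKO (SE 0.063, adjusted p = 8.06e-05, limma). Kif11, the Eg5 motor that pushes the poles apart, was the highest at 50.4, 52.1 and 51.2 in WT and 87.0, 96.7 and 92.7 in cKO. Neither motor overlapped between genotypes. Kifc1, a minus-end motor of the spindle that works against Kif11 (chr17:33875659-33890661), had 22.3, 21.3 and 23.0 in WT and 21.8, 23.6 and 26.0 in cKO. Its groups overlapped, and its log2 fold change of 0.09 (SE 0.079) did not pass (adjusted p = 0.327, limma). After correction for GC content and length Kifc1 was called higher (0.41, adjusted p = 0.00877, limma). Kif20a (MKLP2) and Kif4, a chromokinesin of the midzone, rose by 1.20 and 1.16, Kif2c, the microtubule depolymerase MCAK, by 1.10, and Kif18a, which damps chromosome movements, by 0.94. Kif15, a spindle motor that can stand in for Kif11, rose by 0.86 and Kif20b, which works late in cytokinesis, by 0.78. Kif23, the motor of centralspindlin, rose by 0.50 but was at -0.045 with equal FPKM totals. The ratio of Kif23 to its partner Racgap1 went from 0.561 to 0.591 in WT to 0.695 to 0.854 in cKO.

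All 8 CENP genes rose, with log2 fold changes from 0.40 to 1.57. Cenpm, a member of the constitutive centromere network (chr15:82233779-82244748), had the largest log2 fold change of the 57 genes, from 9.14, 10.8 and 10.7 in WT to 42.1, 25.1 and 31.8 in cKO, 1.57 (SE 0.18, adjusted p = 0.000421, limma). Its cKO libraries differed by more than 1.5 times from lowest to highest, which among the 57 genes was true of Cenpm and Dlgap5 only. Cenpa, the histone H3 variant that marks the centromere (chr5:30666777-30674830), was the highest in level and changed least, from 60.3, 59.0 and 60.1 to 71.5, 87.9 and 79.7. Its groups were apart and the log2 fold change of 0.40 passed (SE 0.083, adjusted p = 0.00445, limma), although it was -0.15 after scaling to the same FPKM total and -0.03 after correction for GC content and length. Cenpe, the kinetochore motor, and Cenpf, a large protein of the outer kinetochore, rose by 1.02 and 1.10. Of the other inner kinetochore genes, Cenph, Cenpk, Cenpn and Cenpi had log2 fold changes of 1.06, 1.01, 0.87 and 0.68, with SEs from 0.071 to 0.15. After correction for GC content and length they were 0.41, 0.30, 0.56 and 0.45, and Cenpk did not pass (adjusted p = 0.0725, limma). Cenpm, Cenpe and Cenpf then stood at 1.47, 1.03 and 1.16. The median of the 8 went from 1.02 to 0.50 with that correction.

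The NDC80 complex, the main microtubule grip of the kinetochore, had log2 fold changes within a narrow range, 1.20 to 1.39. Its median of 1.24 was the highest of the 10 role groups, but after correction for GC content and length it was 0.89, below condensin and mitotic chromosome (0.95) and spindle assembly (0.92). Spc25 (chr2:69193895-69206194), whose promoter stretch is printed above, had an FPKM of 39.0, 39.6 and 41.5 in WT and of 112, 99.5 and 109 in cKO, a log2 fold change of 1.39 (SE 0.073, adjusted p = 8.06e-05, limma). Spc24, its partner at the inner end of the rod, was as high in WT at 41.6, 40.5 and 40.0 and had 107, 76.3 and 114 in cKO. Ndc80 itself, which binds the microtubule together with Nuf2, had 29.9, 30.2 and 32.5 in WT and 68.3, 68.4 and 80.7 in cKO, with the smallest log2 fold change of the 4, 1.20 (SE 0.086). No gene of this complex overlapped between genotypes, and all 4 passed with the WT libraries as 1 sample. The ratio of Ndc80 to Nuf2 was 1.46 to 1.58 in WT and 1.34 to 1.55 in cKO, and that of Spc25 to Spc24 0.937 to 1.04 and 0.953 to 1.30, so within each pair the genotypes overlapped.

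All 6 genes of spindle assembly rose. Dlgap5 (HURP, chr14:47387779-47418407), which stabilises the microtubules that hold kinetochores, had the second largest change of the 57, from 20.8, 20.5 and 20.8 in WT to 74.8, 42.8 and 64.6 in cKO (log2 fold change 1.47, SE 0.19, adjusted p = 0.000682, limma). cKO library 2 was the lowest of the 3 cKO libraries for Dlgap5, as it was for 25 of the 57 genes, while cKO library 1 was the lowest for 23 and cKO library 3 for 9. Tacc3, which crosslinks microtubules of the spindle fibres, was the highest of the group in WT and changed least, from 37.7, 39.2 and 40.7 to 62.1, 59.3 and 61.8 (log2 fold change 0.63, SE 0.063). Tpx2, the activator of Aurora A, rose by 1.21, and its ratio to Aurka was 1.33 to 1.36 in WT and 1.28 to 1.42 in cKO, with overlap. Prc1, which bundles the central spindle, Ckap5, a microtubule polymerase, and Ckap2, a spindle-associated protein, had log2 fold changes of 1.00, 0.98 and 0.91.

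Among the 3 genes of cytokinesis, 2 rose. Ect2, the exchange factor that switches on RhoA at the furrow (chr3:27097222-27153878), had an FPKM of 20.1, 19.7 and 20.1 in WT and of 39.5, 46.2 and 45.2 in cKO (log2 fold change 1.09, SE 0.074, adjusted p = 0.000111, limma). Racgap1, which recruits ECT2 to the midzone (chr15:99620496-99651656), was the highest of the group, at 45.3, 46.0 and 46.6 in WT and 43.9, 51.9 and 51.0 in cKO. Its groups overlapped through cKO library 1, and its log2 fold change of 0.08 (SE 0.077) did not pass (adjusted p = 0.369, limma), whereas it was 0.16 (adjusted p = 0.0356, limma) without that library. The ratio of Ect2 to Racgap1 was 0.427 to 0.443 in WT and 0.887 to 0.899 in cKO. Anln, anillin, the scaffold of the contractile ring, had a log2 fold change of 0.72.

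Of the 8 genes of condensin and the mitotic chromosome, 7 rose. Smc4, the ATPase subunit that both condensins share (chr3:69004738-69034623), was the highest of all 57 genes, at 196, 199 and 201 in WT and 319, 313 and 324 in cKO, with a log2 fold change of 0.68 (SE 0.069, adjusted p = 0.000303, limma). It did not pass with the WT libraries as 1 sample (adjusted p = 0.0669, limma) or with equal FPKM totals (0.12, adjusted p = 0.216). Its partner Smc2 had a log2 fold change of 1.03, and the ratio of Smc4 to Smc2 went from 7.20 to 7.52 in WT to 5.39 to 6.03 in cKO. Ncapg, a HEAT-repeat subunit of condensin I (chr5:45669919-45700546), had 17.1, 16.5 and 18.1 in WT and 45.1, 41.9 and 47.4 in cKO, a log2 fold change of 1.33 (SE 0.073, adjusted p = 8.28e-05, limma). Ncapd2, the other HEAT-repeat subunit of condensin I (chr6:125168007-125191701), had 68.3, 66.5 and 66.5 in WT and 73.4, 66.2 and 65.2 in cKO. The Ncapd2 groups overlapped, and its log2 fold change of 0.02 (SE 0.071) was the nearest to 0 of the 57 (adjusted p = 0.811, limma). Ncapd2 was called higher after correction for GC content and length (0.35, adjusted p = 0.00301, limma). After quantile normalization it was called lower (-0.22, adjusted p = 0.0182, limma). The ratio of Ncapg to Ncapd2 went from 0.249 to 0.271 in WT to 0.614 to 0.727 in cKO. Ncaph, the kleisin of condensin I, and Ncapg2 of condensin II rose by 0.66 and 1.10, Top2a, topoisomerase II alpha, by 1.07 and Mki67, the Ki-67 protein that coats mitotic chromosomes, by 1.12 on the log2 scale.

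**Figure D3:**
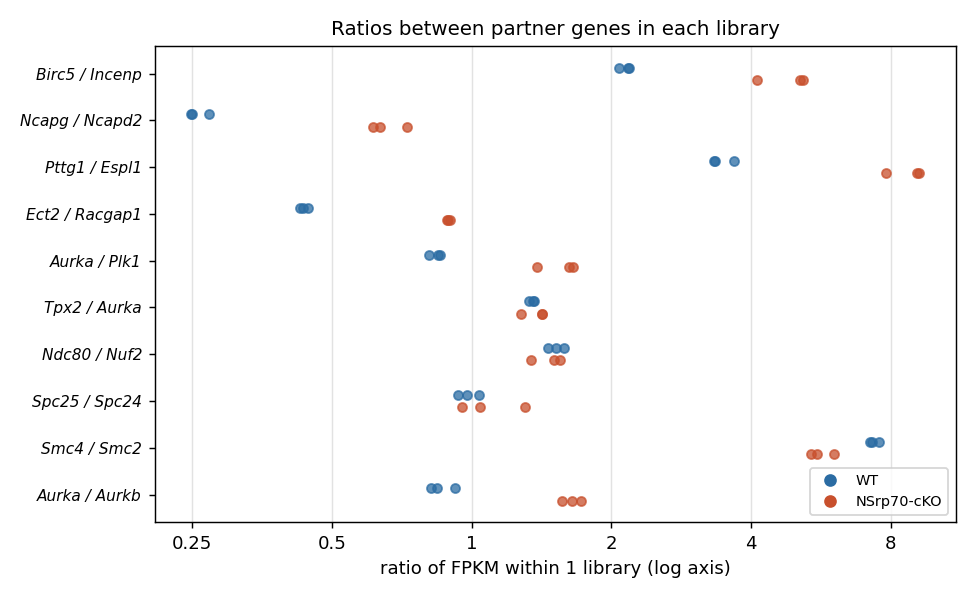
Ratio of the FPKM of 2 partner genes within the same library, on a log axis, for 10 pairs, with 3 WT (blue) and 3 NSrp70-cKO (orange) libraries each. The genotypes are apart in 7 pairs and overlap for Tpx2 to Aurka, Ndc80 to Nuf2 and Spc25 to Spc24.

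The partner pairs were chosen after the values were seen, so these ratios are descriptions without a test. They show that the members moved by unequal amounts whatever the scaling of the libraries, although a correction made gene by gene moves them, as for GC content and length. For example, Aurka over Aurkb was 0.818 to 0.918 in WT and 1.56 to 1.72 in cKO.

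The direction of the smaller changes depends on how libraries are put on 1 scale. Size factors were close to 1.00 in all libraries, but cKO libraries had higher FPKM totals, and dividing every library to the same FPKM total moved the median over the 10326 tested genes from 0.04 to -0.45. Under that scaling 37 of the 57 genes (64.9%) rose, against 8.74% of all tested genes, and 8 (14.0%) fell, against 59.9%. The 8 that fell were Plk1, Aurkb, Incenp, Cdca8, Espl1, Kifc1, Racgap1 and Ncapd2, and their log2 fold changes lay between -0.61 and -0.24, while Cdc20, Ube2c, Kif23 and Cenpa were below 0 without passing. Nek2, Sgol1, Kif20b, Cenpi, Tacc3, Anln, Smc4 and Ncaph also lost their calls, with log2 fold changes from 0.076 (Tacc3) to 0.32 (Sgol1). The median of the members was then 0.43, and 53 of the 57 genes stayed above the median of all tested genes. Counting the 3 WT libraries as 1 sample left 43 members called higher (75.4%) and 0 lower, against 7.16% of all tested genes called higher. The 9 members that lost their call were Plk1, Aurkb, Cdca8, Cdc20, Ube2c, Kif23, Cenpa, Cenpi and Smc4. With both choices together, an alternative added after seeing the data, 13 were called higher and 0 lower, against 1.24% and 29.5% of all tested genes.

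**Figure D4:**
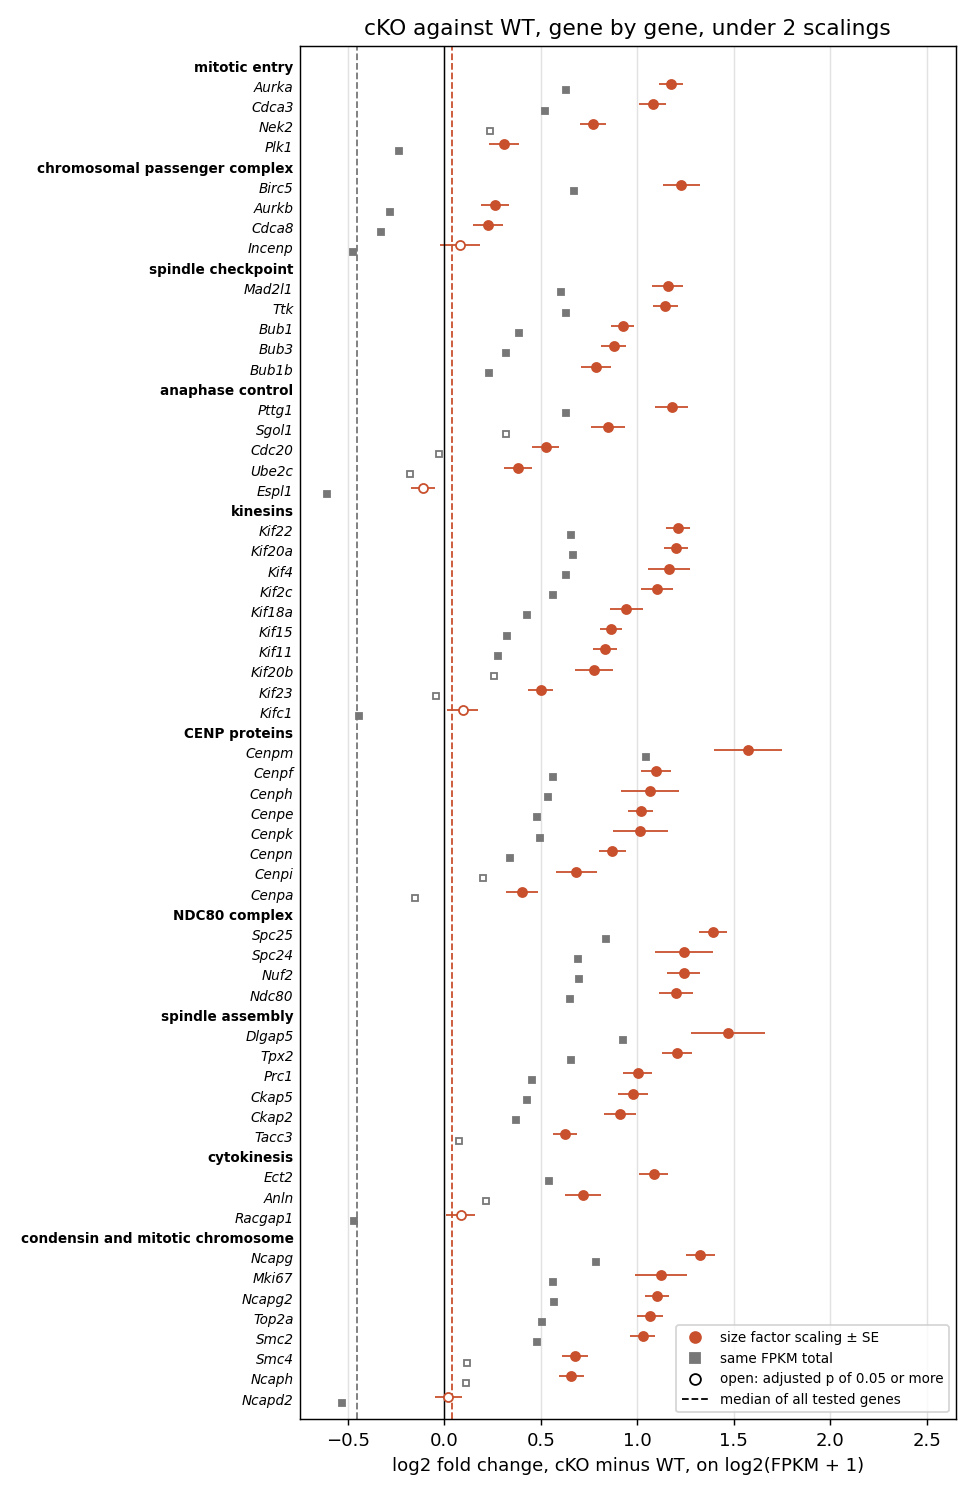
Log2 fold change (cKO minus WT, on log2(FPKM + 1)) of each gene under size factor scaling (orange circles with SE) and after scaling to the same FPKM total (grey squares), open where the adjusted p was 0.05 or more. Dashed lines are the medians of all tested genes under each scaling, 0.04 and -0.45, and most members lie to the right of both.

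Transcript composition moved with the size of the change. The median GC content was 46.2% over the members and 49.96% over all tested genes. The 38 members at a GC content of 50% or less had a median log2 fold change of 1.02 and the 19 above it one of 0.52, and the 5 genes that did not pass had between 50.1% and 57%. Across the 57 genes Spearman's rho of the log2 fold change was -0.27 with GC content, -0.01 with transcript length and -0.14 with the WT level, as a description over genes measured in the same libraries. After GC content and length were regressed out in each library, 52 members were again called higher and 0 lower, against 29.9% and 26.8% of the 10237 genes in that fit, 48 of the 52 were the same genes, and the median was 0.77. Aurkb, Cdca8, Cenpa and Cenpk then did not pass, while Incenp, Kifc1, Ncapd2 and Espl1 did, with Espl1 at 0.48. The part of GC content in the result beyond this correction was not tested. The gene bodies of 13 members overlap another gene of the files, 2 of them a small RNA gene on the same strand and the other 11 a gene on the opposite strand; the library kit keeps the strand, but the counting setting is not given in the sources used here, so reads of such pairs may not be fully separated.

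Other genes of cell division were higher as well, by lists written with earlier results of these data known. Of 28 other kinetochore genes, 25 rose and 1 fell, with a median log2 fold change of 0.72. Sgol2a, the second shugoshin, rose most (1.13), and Hjurp, the chaperone that loads CENP-A, fell from 25.2, 27.3 and 26.6 in WT to 19.8, 21.5 and 18.4 in cKO (log2 fold change -0.39, adjusted p = 0.00302, limma). Of 35 other spindle and cytokinesis genes, 23 rose and 2, Numa1 and Cit, fell (median 0.67), from Numa1, a spindle pole protein, at -0.56 to Melk, a mitotic kinase, at 1.53. Both condensin II genes outside the 57, Ncaph2 and Ncapd3, rose by 0.91 and 0.35. Among 16 anaphase-promoting complex genes, 10 rose and 1 fell, with a median of 0.33 that became -0.19 with equal FPKM totals, and the extremes were Anapc13 at 1.22 and Fzr1, the activator CDH1 of late mitosis and G1, at -0.55.

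Genes of S phase moved with those of mitosis. Of 34 replication genes, 31 rose and 1 fell, with a median log2 fold change of 0.92, close to that of the 57 mitotic genes. Rfc4, a subunit of the clamp loader, rose most (1.37), and Cdt1, the licensing factor of G1, fell from 33.1, 32.1 and 31.4 in WT to 18.6, 21.9 and 18.8 in cKO (log2 fold change -0.68, adjusted p = 0.000403, limma). Of 20 regulators of transcription in mitosis and of CDK1, 14 rose and 4 (E2f4, Pkmyt1, Foxm1 and Cdc25b) fell, with a median of 0.47 that became -0.04 with equal FPKM totals. Ccnb1, cyclin B1, rose most, from 39.4, 37.7 and 38.6 to 96.9, 92.5 and 104 (log2 fold change 1.32), and E2f4, the E2F subunit of the DREAM repressor, fell most, from 72.5, 73.7 and 73.7 to 37.4, 43.9 and 35.2 (-0.91). Foxm1, a factor that activates genes of G2 and M phase, fell from 19.6, 21 and 19.7 to 16.6, 17.0 and 15.2 (log2 fold change -0.29, adjusted p = 0.00734, limma); it was named after its values were seen. The genes listed as interphase kinesins, a list not limited to transport motors, did not share the change. Of 13 tested, 1 (Kifap3) rose and 5 (Kif1c, Kif13b, Kif21b, Kifc2 and Kifc3) fell, against 35.8% and 29.8% of all tested genes. Their median of -0.15 became 0.09 after correction for GC content and length. They ran from Kifc2 at -1.65 to Kif3a at 0.44, which did not pass (adjusted p = 0.106, limma). The same shares of all tested genes apply to the counts of the other lists.

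The counts of these lists depend on the same choices. With the WT libraries as 1 sample, 18 of the 28 kinetochore, 17 of the 35 spindle and cytokinesis, 0 of the 2 condensin II, 3 of the 16 anaphase-promoting complex, 24 of the 34 replication and 6 of the 20 regulator genes were called higher, and only 1 replication gene, 1 regulator and 3 interphase kinesins were called lower. Hjurp, Numa1, Fzr1 and Foxm1 then did not pass. With equal FPKM totals the genes called higher and lower were 12 and 4, 12 and 11, 1 and 0, 2 and 6, 23 and 2, and 6 and 5 in the same order, and 0 and 11 among the interphase kinesins. Of all tested genes, 8.74% were called higher and 59.9% lower under that scaling.

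**Figure D5:**
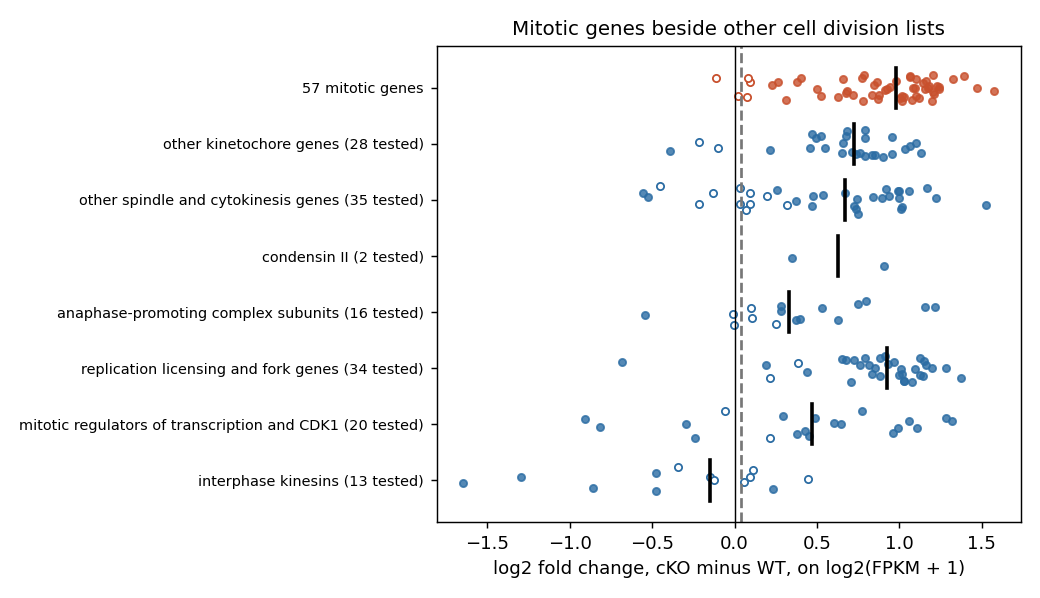
Log2 fold change (cKO minus WT) of the 57 mitotic genes (orange) and of 7 other lists (blue), with 1 point per tested gene, open where the adjusted p was 0.05 or more, black bars at the medians and a dashed line at the median of all tested genes. Replication genes have a median of 0.92 beside 0.98 for the mitotic genes, and interphase kinesins one of -0.15.

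Markers of the sorted cells and of neighbouring stages were read in the same libraries. DP markers were present at high level in all 6 libraries, with a summed FPKM over the 11 found of 6123 to 6201 in WT and 7933 to 10256 in cKO, and 7 rose and 2 fell, against 2 and 4 with equal FPKM totals, 1 and 6 after quantile normalisation and 0 and 0 with the WT libraries as 1 sample. Of 9 genes listed as markers of DN and immature single-positive thymocytes, 5 were tested, 0 rose and 3 (Il2ra, Notch3 and Hes1) fell. The log2 fold changes of these 3 were -0.45, -1.46 and -0.52. Summed FPKM over the 9 was 46.0 to 46.6 in WT and 32.2 to 42.8 in cKO. Most of that sum was Ptcra, which did not pass (log2 fold change 0.03, adjusted p = 0.851, limma). Whether the 9 genes mark the cycling cells of those stages was not tested, so the counts cannot show how many such cells were present. Of 8 markers of mature single-positive thymocytes, 7 fell and 1 rose, with a sum of 136 to 138 in WT and 103 to 126 in cKO. Erythroid markers summed to 2.00 to 2.84 in WT and 12.5 to 26.9 in cKO, with 2 of 2 tested genes (Hbb-b1 and Hba-a1) higher. B cell markers summed to 23.2 to 24.7 in WT and 27.2 to 39.9 in cKO, nearly all of it Cd79b. Myeloid markers summed to 6.19 to 7.99 and 5.40 to 7.48, and thymic epithelial markers to 6.45 to 6.81 and 4.53 to 5.91, with Krt5 and Foxn1 at 0. The part of the shift in mature and erythroid markers in the mitotic result was not tested.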

How the data were processed

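The authors sorted DP thymocytes, prepared poly(A)-enriched libraries with a directional kit, mapped reads to mm10 with TopHat and deposited FPKM values from Cufflinks, 1 per gene symbol and library; versions and the gene annotation are not given in the sources used here. The size of a single fragment, read at low values of 2611 genes with 1 transcript of at least 1000 nucleotides and with an assumed fragment length of 200, gave the depth. Values were scaled by size factors (median of ratios), and genes with 3 or more libraries at an FPKM of at least 1, 10326 in all, entered a limma fit (version 3.58.1, R 4.3.3; lmFit, eBayes with a trend) of log2(FPKM + 1) on genotype, with Benjamini-Hochberg adjustment over all tested genes at 0.05. The study tested counts with a count model, which FPKM values do not allow. On simulated data the fit of cKO against WT over 10326 genes called 91 of 100 genes changed 2-fold, 98 of 100 changed 4-fold and 13 unchanged genes. The simulation gave both genotypes the same spread for a gene, and every changed gene was raised. In the real libraries the spread was larger in cKO and genes moved both ways, so these counts give no error rate for the real fit. The correction for GC content and length used natural splines with 5 degrees of freedom. Python 3.11.15, numpy 2.4.6, pandas 2.3.3 and matplotlib 3.10.9 were used for summaries and figures, and positions come from GENCODE on GRCm38.

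The members and lists were chosen with earlier results of these data known, so neither is independent support. By rule, each role group names its highest WT level, its largest and smallest log2 fold change and every member that fell or did not pass, with Cdca3, Nsrp1 and the extremes of each pathway list; the 5 members outside the call are named in full. Partner ratios, Foxm1 and the joint alternative were chosen after values were seen. Alternatives changed the pseudocount, filter, scaling, trend, replicate block, WT replication, GC content and length, and left out each library. Single values of some marker genes are not reported here.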

Additional observations from a re-analysis of the deposited data

How the results depend on the processing

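All 57 genes stayed on their side of the threshold and in their direction with a pseudocount of 0.1, no filter, a filter at an FPKM of 5, no scaling and no trend. Of the 57, 1 lost its call with the replicate block (51 called); the same-numbered libraries correlated at -0.022 to 0.038, so numbers do not pair them, and not every library correlated best with its own number. Leaving out 1 library gave 50 to 53 genes called, 50 to 53 higher and 0 lower, with medians from 0.91 to 0.99 and a log2 ratio of the summed FPKM from 0.85 to 0.91; Ncapd2 lay between -0.029 (without cKO replicate 1) and 0.051.

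With equal FPKM totals 8 genes passed as lower, the median was 0.43 and the log2 ratio of the sums 0.32, and the direction turned for Plk1 (-0.24), Aurkb (-0.28), Incenp (-0.47), Cdca8 (-0.33), Cdc20 (-0.030), Ube2c (-0.18), Kif23 (-0.045), Kifc1 (-0.44), Cenpa (-0.15), Racgap1 (-0.47) and Ncapd2 (-0.53). With the WT libraries also counted as 1 sample, chosen after seeing the data, 13 genes were called, 13 higher, the median was 0.43, and the same genes turned, to -0.24, -0.29, -0.47, -0.33, -0.031, -0.18, -0.045, -0.45, -0.15, -0.47 and -0.53. Quantile normalization gave 1 gene lower, a median of 0.84 and a log2 ratio of the sums of 0.61, and turned Incenp (-0.12), Ube2c (-0.083), Racgap1 (-0.080) and Ncapd2 (-0.22). Correcting for GC content and length gave a median of 0.77 and turned Espl1 (0.48) and Cenpa (-0.030). The cause of these turns was not tested. The log2 ratio of the sums without the 3 members highest in WT was 0.92. Depth did not limit the members, all above an FPKM of 4 in every library, but 3 libraries per genotype and the spread between cKO libraries limit the precision.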
